A study of Mus musculus with 20 samples.

Results

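The 9 genes described here encode enzymes that turn squalene into cholesterol: Sqle, Lss, Cyp51, Tm7sf2, Msmo1, Nsdhl, Hsd17b7, Sc5d and Dhcr7. They were chosen by symbol, with earlier results of these data known. Every array probe set annotated to exactly 1 of these symbols was kept, which gave 19 of the 45037 probe sets that are not controls. The tissue was the liver of male C57BL/6J mice, an inbred strain, that arrived at 3 weeks of age, were labelled as 8 weeks old and were killed on day 30 after a fast of 16 h. One group of 10 mice was fed for 4 weeks a high-fat diet with 45% of its energy as fat, and the other group of 10 a low-fat diet with 10%. All mice had eaten the low-fat diet during a week of acclimation. Each mouse had its own Affymetrix array, so the replicates are animals, and their number limits the precision. The design also held mice that received a maple syrup extract with the high-fat diet, and they were not used here.

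Cholesterol is built in the endoplasmic reticulum. The mevalonate route ends in squalene, which is oxidised and folded into the first sterol, lanosterol, and then trimmed, reduced and rearranged to cholesterol. The liver is a main site of this synthesis. The genes of the pathway are known targets of the transcription factor SREBP-2, which is released when sterol in the membrane of the endoplasmic reticulum is low, and NF-Y and Sp1 are its usual partners at their promoters. Whole liver was measured, so more cells of a type and more RNA per cell cannot be told apart.

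Promoter sequence is shown for 5 of the genes because genes of this pathway often vary together: Cyp51 and Msmo1, which were higher on the high-fat diet, and Nsdhl, Tm7sf2 and Sc5d, whose difference did not pass the test. Each line gives the 250 bases before the gene's outermost annotated start (RefSeq, GRCm38.p6), read in the direction of transcription. Capitals mark matches to CCAAT, the NF-Y box, and to GGGCGG, the GC box that Sp1 binds, in either orientation, so that ATTGG and CCGCCC are also in capitals.
Cyp51, chr5:4104698-4104947, minus strand: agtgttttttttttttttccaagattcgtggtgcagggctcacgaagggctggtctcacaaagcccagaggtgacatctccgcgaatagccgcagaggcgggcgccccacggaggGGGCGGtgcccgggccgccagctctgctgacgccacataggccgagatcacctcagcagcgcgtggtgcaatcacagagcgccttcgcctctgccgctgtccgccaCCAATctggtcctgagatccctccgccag
Msmo1, chr8:64733579-64733828, minus strand: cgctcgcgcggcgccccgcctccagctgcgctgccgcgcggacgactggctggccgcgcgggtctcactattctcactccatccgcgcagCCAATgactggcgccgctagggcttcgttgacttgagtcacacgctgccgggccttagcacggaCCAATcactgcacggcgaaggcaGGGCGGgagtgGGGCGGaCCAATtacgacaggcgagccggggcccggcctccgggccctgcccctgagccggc
Nsdhl, chrX:72918271-72918520, plus strand: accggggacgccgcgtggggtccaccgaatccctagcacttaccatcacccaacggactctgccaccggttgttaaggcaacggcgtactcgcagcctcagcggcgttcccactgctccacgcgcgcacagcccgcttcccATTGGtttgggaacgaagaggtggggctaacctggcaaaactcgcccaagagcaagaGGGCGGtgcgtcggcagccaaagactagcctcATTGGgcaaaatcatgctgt
Tm7sf2, chr19:6067851-6068100, minus strand: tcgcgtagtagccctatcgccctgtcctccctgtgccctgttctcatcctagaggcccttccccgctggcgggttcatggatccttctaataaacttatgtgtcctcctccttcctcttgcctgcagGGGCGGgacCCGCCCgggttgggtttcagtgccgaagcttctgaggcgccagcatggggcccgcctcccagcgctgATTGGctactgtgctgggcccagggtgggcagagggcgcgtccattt
Sc5d, chr9:42264301-42264550, minus strand: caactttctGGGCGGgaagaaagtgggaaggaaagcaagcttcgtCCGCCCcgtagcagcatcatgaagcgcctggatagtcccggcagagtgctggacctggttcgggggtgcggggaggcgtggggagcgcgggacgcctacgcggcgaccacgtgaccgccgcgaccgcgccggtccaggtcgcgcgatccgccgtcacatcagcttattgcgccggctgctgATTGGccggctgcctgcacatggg

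Of the 9 genes, 8 had a promoter in the RefSeq table, and Sqle had none there. All 8 held at least 1 CCAAT box in a 250-base window of 1 of their starts, against 37.5% of 27025 genes in the table. A GC box was also found in all 8, against 35.4% of all genes. Among 9492 genes whose liver score lay above the median of all probe sets, the shares were 39.7% for CCAAT and 62.0% for the GC box. TCACNCCAC, a strict form of the sterol regulatory element bound by SREBP, matched 0 of the 8 genes and 1.22% of all genes. The motifs did not overlap in these windows. Msmo1 held 3 CCAAT boxes, of which the nearest began at position -55 relative to the start, just after a GC box. Cyp51 held 1, which began at position -29. The genes shown without a diet call held such boxes too, 2 in Nsdhl, 1 in Tm7sf2 and 1 in Sc5d. Dhcr7 held CCAAT boxes at an inner start and none at its outermost one. These matches describe letters in the windows and were not tested against binding.

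The values are a deposited score for each probe set whose differences between mice are compressed to a degree that varies from one probe set to the next. Within diets, the SD of the 19 probe sets ran from 2.88e-06 to 0.025, while their means lay between 5.50 and 10.5. A difference in score is therefore no log2 fold change. Sizes are given as standardised differences, the high-fat mean minus the low-fat mean in units of the SD within diets, with a 95% interval. Tests are limma's, two-sided, fitted over all 45037 probe sets, and adjusted p-values are Benjamini-Hochberg values over all of them with a threshold of 0.05.

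On the high-fat diet, 5 of the 9 enzyme genes were higher (Sqle, Lss, Cyp51, Msmo1 and Hsd17b7) and 0 lower, each read at its probe set with the highest mean. Across the 19 probe sets, 8 were higher and 0 lower. Of all probe sets, 2.32% were called, 1.11% higher and 1.20% lower. Of the highest-mean probe sets of 18193 named genes, 1.49% were called higher and 1.51% lower. The median standardised difference was 2.06 over the 9 genes, against 0.04 over the highest-mean probe sets of all named genes. All 9 genes had a positive difference. After quantile normalisation the 9 genes had a median of 1.53 against -0.41 for all probe sets. After centring arrays on their medians it was 1.94 against -1.29, and 8 of 9 genes lay above 0 in both. Centring subtracts the array median, which was higher by 7.33e-05 on the high-fat diet. The median SD within diets of all probe sets was 1.15e-05, so the step lowers probe sets of small SD by construction. It called 38220 of 45037 lower, and so many calls ease the adjusted threshold for the rest. Calls by that fit, in either direction, carry this limit.

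**Figure D1:**
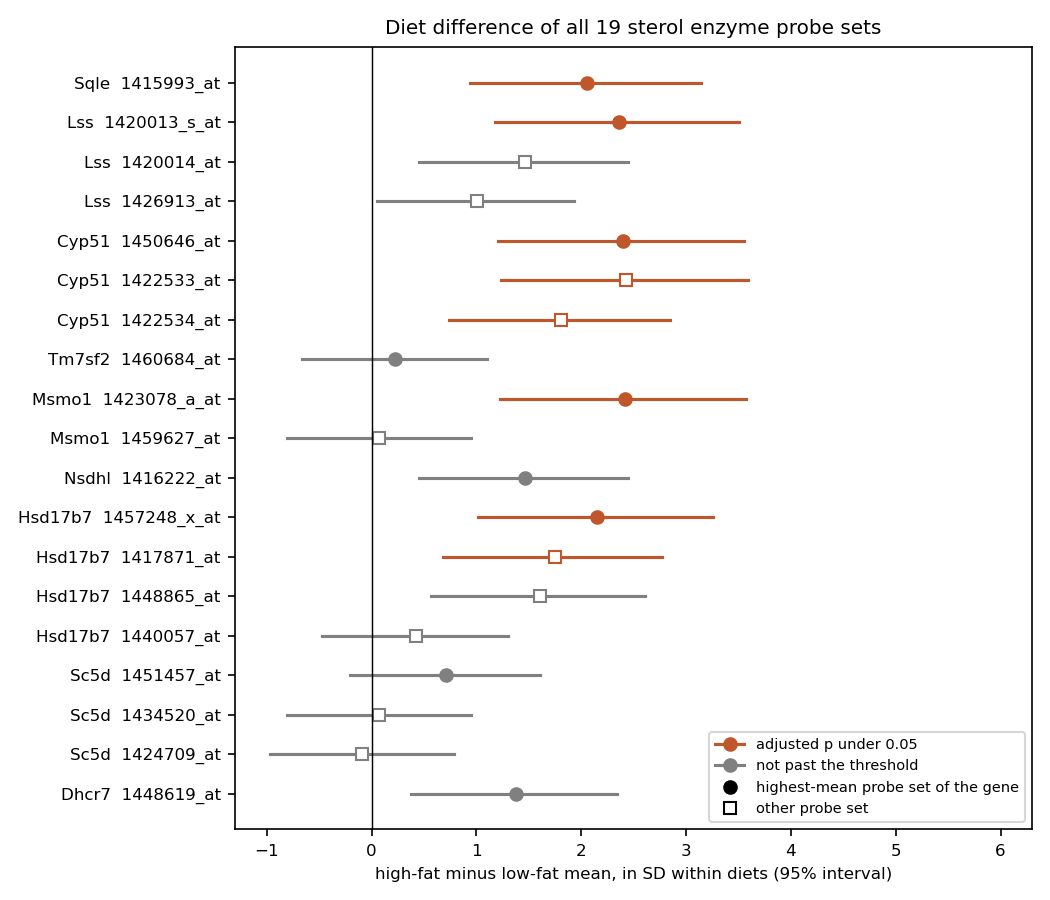
Standardised difference between diets (x axis, high-fat minus low-fat mean in units of the SD within diets, with 95% interval) for each of the 19 probe sets, grouped by gene in pathway order. The 8 probe sets past the threshold belong to Sqle, Lss, Cyp51, Msmo1 and Hsd17b7. Intervals include 0 at the 3 of Sc5d, the 1 of Tm7sf2, 1459627_at of Msmo1 and 1440057_at of Hsd17b7.

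Sqle, squalene epoxidase, carries out the first oxygen-dependent and a rate-limiting step (chromosome 15, 59315092 to 59331193). Its single probe set had a lowest, median and highest score of 6.578, 6.622 and 6.672 in the high-fat mice, against 6.562, 6.569 and 6.588 in the low-fat mice. Of the high-fat mice, 8 lay above every low-fat mouse, and 2 overlapped with them. The standardised difference was 2.06 (95% interval 0.94 to 3.14, n = 10 per diet, limma adjusted p = 0.0164). With the poly-A spike-in controls as a covariate it was 1.89 and the call was lost (limma adjusted p = 0.0633).

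Lss, lanosterol synthase, folds oxidosqualene into lanosterol (chromosome 10, 76531565 to 76557139). Its probe set 1420013_s_at had scores of 7.17085, 7.17126 and 7.17171 (lowest, median, highest) in the high-fat mice, against 7.17053, 7.1707 and 7.17103 in the low-fat mice. The groups overlapped in few mice, with 8 high-fat mice above all low-fat mice. The difference was 2.36 (1.18 to 3.50, limma adjusted p = 0.00692). The suffix _s_at marks probes shared by several transcripts, which may include those of other genes. The remaining probe sets of Lss did not pass, with differences of 1.46 (1420014_at, limma adjusted p = 0.129; -1.02 after quantile normalisation) and 1.00 (1426913_at, limma adjusted p = 0.276; 0.35 after quantile normalisation and 0.23 after median centring). 1420014_at was called lower after median centring (-1.26, limma adjusted p = 0.0172) and higher after centring on standardised values (1.43, limma adjusted p = 0.0310).

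Cyp51, the cytochrome P450 that removes the 14-alpha methyl group of lanosterol, was higher at all 3 of its probe sets (chromosome 5, 4080674 to 4104697). At 1450646_at the scores were 7.341, 7.379 and 7.389 (lowest, median, highest) in the high-fat mice, against 7.338, 7.352 and 7.356 in the low-fat mice. High-fat replicate 9 lay among the low-fat mice, and the other 9 high-fat mice lay above all of them. The difference was 2.40 (1.21 to 3.55, limma adjusted p = 0.00613), and 4.24 without that mouse. The other probe sets stood at 2.43 (1422533_at, limma adjusted p = 0.00581; 4.08 without the same mouse) and 1.81 (1422534_at, limma adjusted p = 0.0343). The call of the last was lost with the rank sum test (adjusted p = 0.0629), with the spike-in covariate (0.112), with the replicate number as a block (0.0662) and in 12 of 20 fits that each omitted a mouse (up to 0.0606).

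Tm7sf2 encodes a sterol 14-reductase that acts on the product of Cyp51, a step it shares with the lamin B receptor Lbr (chromosome 19, 6062821 to 6067850). Its scores were 10.51884, 10.51905 and 10.51935 (lowest, median, highest) in the high-fat mice, against 10.51876, 10.51904 and 10.51923 in the low-fat mice. The groups overlapped over nearly their whole range. The difference was 0.22 (-0.66 to 1.10, limma adjusted p = 0.865), -0.25 after median centring and 0.78 after quantile normalisation. It was 0.0175 without high-fat replicate 7 and 0.39 without high-fat replicate 10.

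Msmo1, a methylsterol monooxygenase, begins the removal of the methyl groups at carbon 4 (chromosome 8, 64718123 to 64733578). At 1423078_a_at the scores were 7.797, 7.834 and 7.890 (lowest, median, highest) in the high-fat mice, against 7.769, 7.787 and 7.800 in the low-fat mice. The groups nearly separated: when each high-fat mouse was set against each low-fat mouse, the high-fat one was higher in 99% of the pairings, the highest share among the 19 probe sets. The difference was 2.42 (1.22 to 3.58, limma adjusted p = 0.00585). The second probe set, 1459627_at, had a mean score of 5.50, below the median probe set (6.57), and showed 0.07 (-0.80 to 0.95, limma adjusted p = 0.962). After median centring it was called lower (-1.40, limma adjusted p = 0.0170).

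Nsdhl, a sterol dehydrogenase and decarboxylase, takes the next step at carbon 4 (chromosome X, 72918521 to 72958528). Its scores were 7.5652, 7.5669 and 7.57 (lowest, median, highest) in the high-fat mice, against 7.5638, 7.5652 and 7.5669 in the low-fat mice. The low-fat median was exceeded by all 10 mice on the high-fat diet, and the highest low-fat mouse by 5 of them. The difference was 1.46 (0.45 to 2.44) and did not pass (limma adjusted p = 0.0880). It did pass after quantile normalisation (0.0355), after both kinds of array centring (0.0170 and 0.0312), and with the mean of each gene's probe sets, adjusted over genes (0.0266). After the centrings its difference was 1.42 and 1.43, no larger than in the main fit, while more of all probe sets were called.

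Hsd17b7, a sterol 3-ketoreductase, completes the removal at carbon 4 (chromosome 1, 169949535 to 169969242). At 1457248_x_at, whose suffix marks probes that may match other transcripts, scores were 9.2032, 9.2052 and 9.2061 (lowest, median, highest) in the high-fat mice, against 9.2023, 9.2034 and 9.2042 in the low-fat mice. Of the high-fat mice, 8 lay above all low-fat mice. The difference was 2.15 (1.01 to 3.25, limma adjusted p = 0.0128). After quantile normalisation it was 0.81 and the call was lost (limma adjusted p = 0.230). A second probe set without such a suffix, 1417871_at, was also called (1.75, limma adjusted p = 0.0412), but leaving out 1 mouse at a time ended that call in 14 of 20 fits (up to 0.0720). It was also lost after quantile normalisation (0.144), with the spike-in covariate (0.125), with the exact rank sum test (0.101), with the replicate number as a block (0.0578) and without limma's moderation of the variance (0.0503). The third, 1448865_at, stood at 1.61 (0.57 to 2.61, limma adjusted p = 0.0611), and at 2.64 without high-fat replicate 9 (limma adjusted p = 0.00502). It also passed after quantile normalisation (0.0366), after both kinds of array centring (0.0170 and 0.0137) and among the upper part of probe sets by mean (0.0386). In these fits its difference ran from 1.46 to 1.61, no larger than in the main fit. The fourth, 1440057_at, stood at 0.42 (-0.47 to 1.31, limma adjusted p = 0.724), at -1.13 after quantile normalisation and at -1.26 after median centring, where it was called lower (limma adjusted p = 0.0171). It ranged from 0.22 without high-fat replicate 7 to 0.69 without high-fat replicate 5.

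Sc5d, the lathosterol oxidase that adds the double bond at carbon 5, did not pass at any of its 3 probe sets (chromosome 9, 42251592 to 42264300). At 1451457_at the scores were 10.4793, 10.4805 and 10.4815 (lowest, median, highest) in the high-fat mice, against 10.4796, 10.4801 and 10.4806 in the low-fat mice. The high-fat mice reached both further up and further down than the low-fat mice. The difference was 0.71 (-0.21 to 1.60, limma adjusted p = 0.482), -0.18 after quantile normalisation and 1.12 without high-fat replicate 9. The other probe sets stood at 0.07 (-0.80 to 0.95) and -0.09 (-0.97 to 0.79). The second of these, at 1424709_at, was the only 1 of the 19 differences below 0, and after median centring it was called lower (-1.33, limma adjusted p = 0.0170).

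Dhcr7, which reduces the double bond at carbon 7 and yields cholesterol, had 1 probe set (chromosome 7, 143823167 to 143848410). Its scores were 7.1785, 7.1792 and 7.1795 (lowest, median, highest) in the high-fat mice, against 7.1781, 7.1784 and 7.179 in the low-fat mice. Of the high-fat mice, 6 lay above every low-fat mouse and 4 among them. The difference was 1.37 (0.38 to 2.34) and did not pass (limma adjusted p = 0.112). It passed after both kinds of array centring (0.0170 and 0.0492) and with the mean of each gene's probe sets (0.0390). After the centrings its difference was 1.22 and 1.35, no larger than in the main fit, while more of all probe sets were called. Whether the 5 genes that passed differ from the 4 that did not was not tested.

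**Figure D2:**
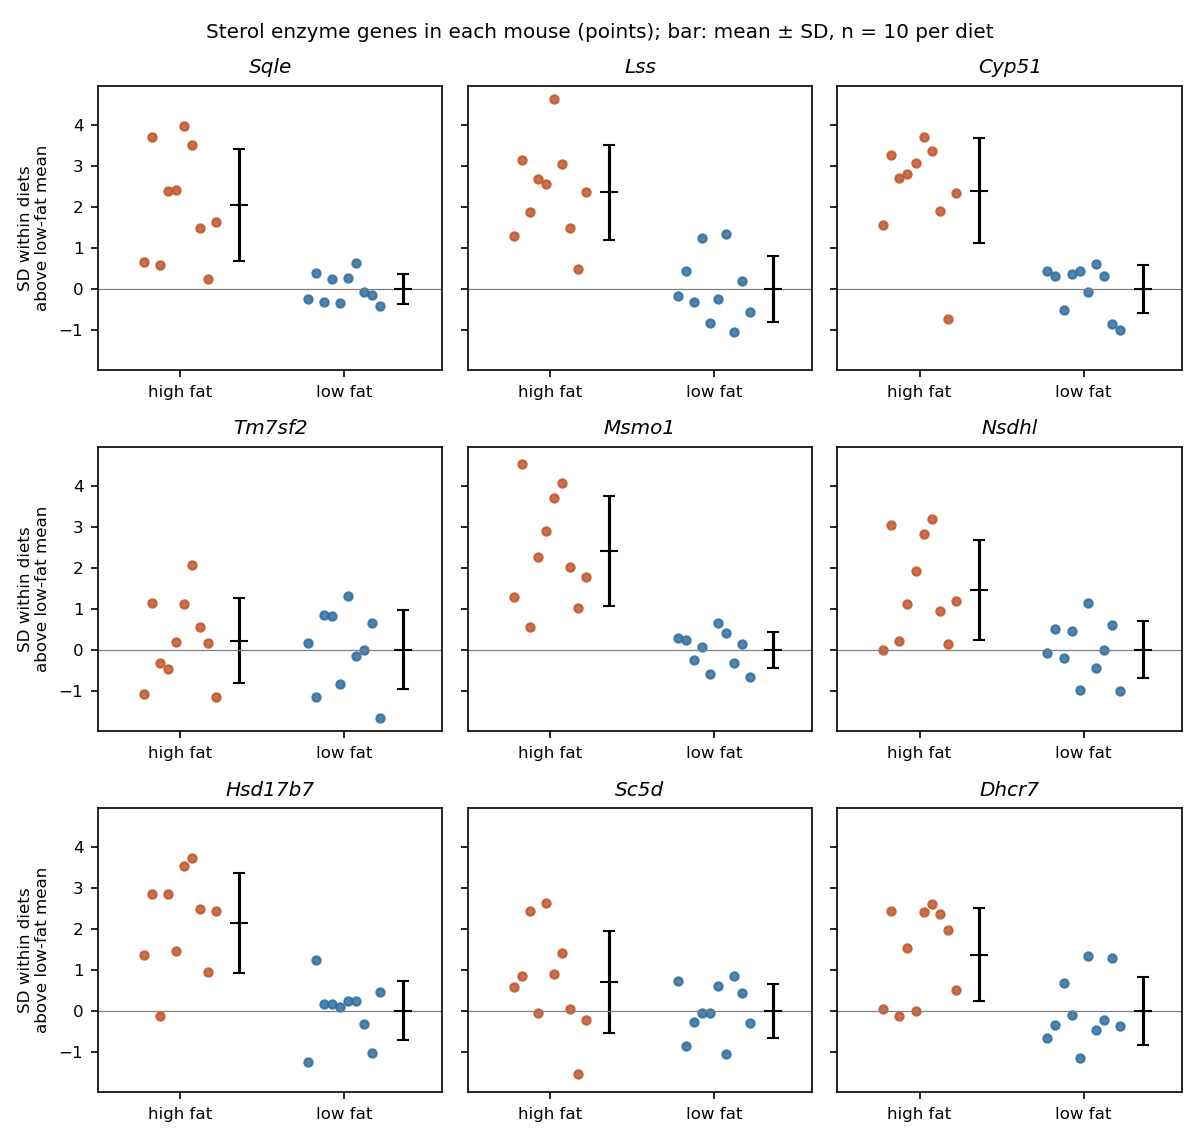
Score of each mouse for the highest-mean probe set of each gene (y axis, SD within diets above the low-fat mean), high-fat mice on the left and low-fat mice on the right of each panel, with mean ± SD (n = 10 per diet). For Msmo1 9 of 10 high-fat mice lie above all low-fat mice, while for Tm7sf2 1 does.

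The high-fat mice differed from each other more than the low-fat mice did. The SD was larger on the high-fat diet at all 19 probe sets, with a median ratio of 1.77, whereas it was larger at 49.4% of all probe sets and at 55.5% of the 501 probe sets called higher. The ratio was 3.80 for Sqle, 3.08 for Msmo1 at 1423078_a_at and 3.00 for Sc5d at 1434520_at, and 1.07 for Tm7sf2. This is a description of spread in the deposited score, and the part of its compression in it was not tested. Probe sets of 1 gene share its transcript and are no independent count.

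Averaged over the 9 genes, the mice stood at 0.30, 1.58 and 3.00 (lowest, median, highest) SD above the low-fat mean on the high-fat diet, against -0.62, 0.03 and 0.58 on the low-fat diet. High-fat replicates 7, 6 and 2 were the highest, at 3.00, 2.98 and 2.78. High-fat replicate 7 exceeded every low-fat mouse at all 9 genes, and replicate 6 did so at 8. High-fat replicates 9, 1 and 3 were the lowest, at 0.30, 0.63 and 0.86, so that replicate 9 overlapped with the low-fat mice. In replicate 9 the genes did not all stand low: Cyp51 and Sc5d lay below the low-fat mean while Dhcr7 lay above every low-fat mouse.

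**Figure D3:**
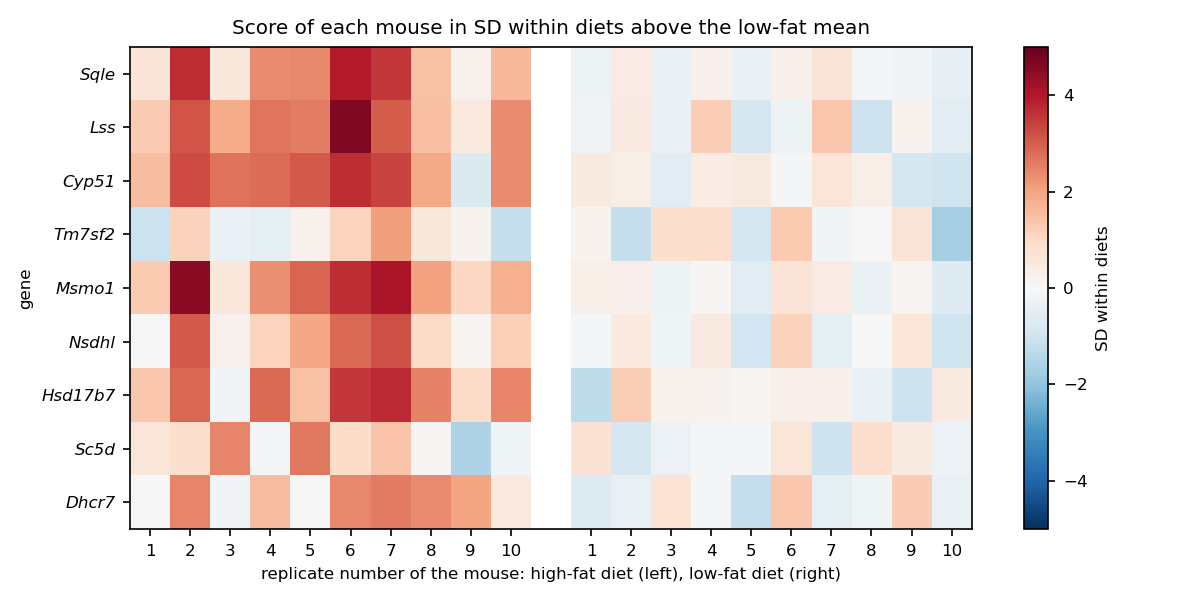
Score of each of the 20 mice (columns, by replicate number, high-fat diet left and low-fat diet right) for each gene (rows, pathway order), coloured by SD within diets above the low-fat mean. High-fat replicates 2, 6 and 7 are high at most genes, and among high-fat mice Sc5d follows the others least (r = 0.24 with their mean).

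The genes varied together from mouse to mouse on the high-fat diet. Over the 36 pairs of genes, Pearson's r across the 10 high-fat mice had a median of 0.69 and was positive in 34 pairs, and 12 pairs passed an adjusted p of 0.05 in a two-sided permutation test (15 by Spearman's rho, 11 by both; adjusted over 72 relations, both diets together). In the low-fat mice the median was 0.25, 27 pairs were positive and 0 passed by either measure (7 had an unadjusted p under 0.05 by r and 6 by rho). Whether the correlations differ between diets was not tested. No background of pairs of other genes was set beside these values. It was therefore not tested whether such r is particular to these genes or common to gene pairs on these arrays. Msmo1 and Nsdhl had the highest r on the high-fat diet, 0.97 (rho 0.90, permutation p = 7e-05 and 0.00089, adjusted 0.00168 and 0.00984), and 0.95 without the 2 mice farthest from the median of Msmo1. Sqle and Msmo1 had an r of 0.96 (rho 0.94, permutation p = 7e-05 and 0.00017, adjusted 0.00168 and 0.00408), and 0.97 without the 2 farthest mice. In low-fat mice the same pair had an r of 0.74 (rho 0.76, permutation p = 0.0163 and 0.0151, adjusted 0.0653 and 0.0608), and 0.72 without the 2 farthest mice. Nsdhl, which did not pass the diet test, had an r of 0.97 with Sqle among high-fat mice (rho 0.90, permutation p = 0.00011 and 0.00087, adjusted 0.00198 and 0.00984), and 0.97 without the 2 farthest mice. None of the 8 pairs of Sc5d with another gene passed by either measure in either diet.

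**Figure D4:**
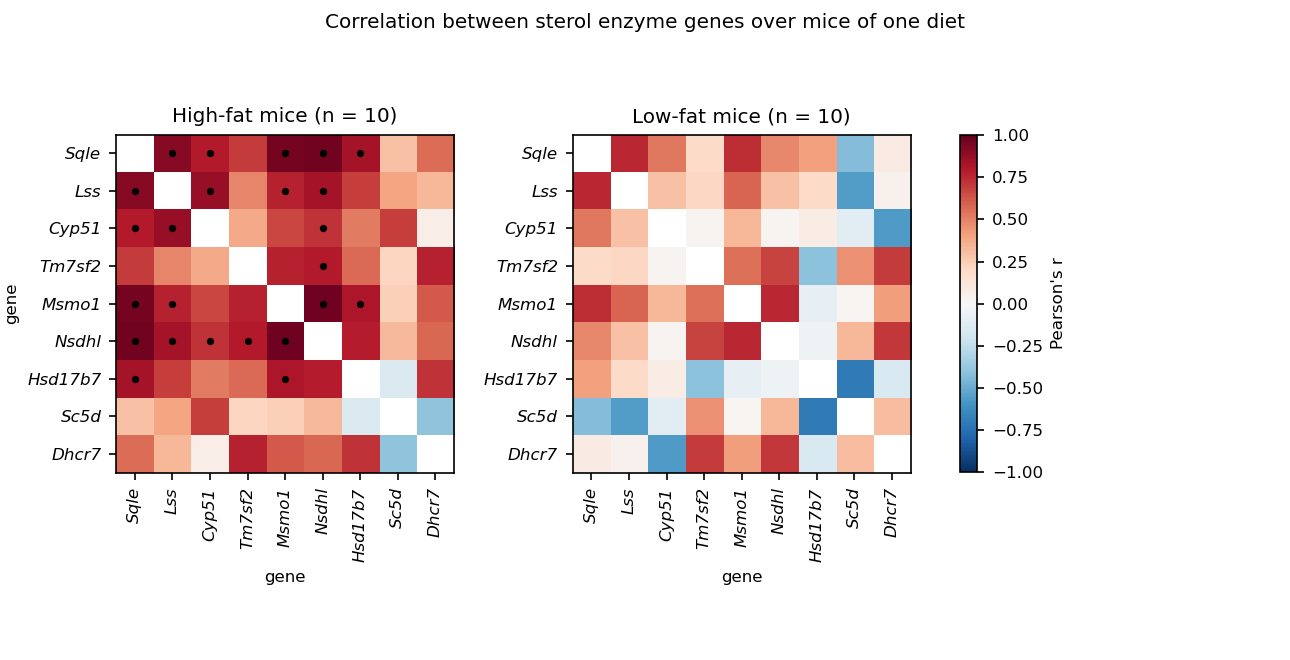
Pearson's r between pairs of the 9 genes over the 10 high-fat mice (left) and the 10 low-fat mice (right), with dots on pairs past an adjusted p of 0.05. The left panel holds 12 such pairs and the right panel 0, and the rows of Sc5d hold none.

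Probe sets of 1 gene were compared in the same way, as a check that scores follow the transcript. On the high-fat diet 9 of 16 such pairs passed, and on the low-fat diet 5 passed by r and 3 by rho (adjusted over 32 relations). For Cyp51, 1450646_at and 1422533_at had an r of 0.99 in high-fat mice (rho 0.96, permutation p = 1e-05, the smallest these permutations can give, and 6e-05, adjusted 0.00032 and 0.00096; r = 0.98 without the 2 farthest mice). The probe sets of Msmo1 (1459627_at) and Hsd17b7 (1440057_at) passed with no other probe set of their gene in either diet.

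Among all 18193 named genes, leaving out provisional gene models, those most like the 9 enzymes across mice were ranked by the lower of their r on the 2 diets with the mean of the 9, diet means removed. As a description of the top of a long ranking over 10 mice per diet, the first 5 were Trem2 (0.78 on the high-fat and 0.86 on the low-fat diet), Aldoc (0.77 and 0.78), Pmvk (0.90 and 0.76), Tmem97 (0.94 and 0.68) and Mvk (0.79 and 0.67). Pmvk and Mvk are kinases of the mevalonate route, Tmem97 is a sterol-responsive membrane protein, Aldoc is an aldolase, and Trem2 is a receptor of macrophages. None of these 5 passed the diet test, with differences from -1.14 for Trem2 to 1.00 for Tmem97. Set against the mean of the other 8 enzymes, Nsdhl had an r of 0.97 and 0.84, Msmo1 0.93 and 0.81, Hsd17b7 0.75 and -0.22, and Sc5d 0.24 and -0.08, on the high-fat and the low-fat diet in each case.

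Upstream of squalene, 1 of 7 measured genes of the mevalonate and squalene steps was higher and 0 lower at the highest-mean probe sets, with a median difference of 0.48. That gene was Idi1, the isomerase of the isoprenoid building block, with scores of 7.280, 7.359 and 7.415 (lowest, median, highest) in the high-fat mice, against 7.246, 7.284 and 7.307 in the low-fat mice. Of the high-fat mice, 9 lay above all low-fat mice, and the difference was 2.37 (1.19 to 3.52, limma adjusted p = 0.00657). Hmgcs1, which makes HMG-CoA, stood at -0.23 (-1.11 to 0.65, limma adjusted p = 0.858). Mvd, the mevalonate diphosphate decarboxylase, did not pass at its highest-mean probe set (1.26, limma adjusted p = 0.152) but was higher at 1448663_s_at (1.86, limma adjusted p = 0.0296), and was also chosen after its values were seen. Fdps, which makes farnesyl diphosphate and was chosen after its value was seen, stood at 1.67 (0.63 to 2.69, limma adjusted p = 0.0505). Its other probe set, 1438150_at, stood at 0.11 (-0.77 to 0.99, limma adjusted p = 0.943).

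Among other enzymes and partners of the steps after squalene, 1 of 7 measured genes was higher and 1 lower. Erg28 (1454161_s_at), a scaffold protein of the sterol enzymes that act at carbon 4 in yeast, had scores of 9.0792, 9.0796 and 9.0799 (lowest, median, highest) in the high-fat mice, against 9.079, 9.0791 and 9.0794 in the low-fat mice. It was higher by 2.16 (1.02 to 3.26, limma adjusted p = 0.0125), but stood at -0.38 after quantile normalisation, and the call was lost with the spike-in covariate (0.0583) and with the replicate number as a block (0.0713). Sec14l2, a lipid-binding protein also called supernatant protein factor that stimulates squalene epoxidation in vitro, had scores of 10.85396, 10.85423 and 10.85455 in the high-fat mice, against 10.85431, 10.85446 and 10.85463 in the low-fat mice. It was lower by -1.93 (-2.98 to -0.83, limma adjusted p = 0.0238), opposite in sign to Sqle. Ebp, the sterol isomerase between the steps of Hsd17b7 and Sc5d, stood at 1.17 (0.20 to 2.11, limma adjusted p = 0.195; -1.15 after median centring).

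Of 14 measured genes of sterol sensing, uptake and storage, 0 passed by limma or by the exact rank sum test, and 4 were higher and 1 lower at an unadjusted limma p under 0.05. Their differences ran from -1.49 to 1.24 with a median of 0.28. Srebf2, which encodes SREBP-2, stood at 0.25 at its highest-mean probe set (-0.63 to 1.13, limma adjusted p = 0.846). This probe set stood at -0.99 after quantile normalisation and at -1.15 after median centring, where it was called lower (limma adjusted p = 0.0228). The other probe set of Srebf2, 1426744_at, stood at 1.07 (0.11 to 2.00, limma adjusted p = 0.240). Insig1, an SREBP target that holds SREBP back in the endoplasmic reticulum, stood at 1.05 (0.10 to 1.98, limma adjusted p = 0.247), and passed after median centring (1.03, limma adjusted p = 0.0309).

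**Figure D5:**
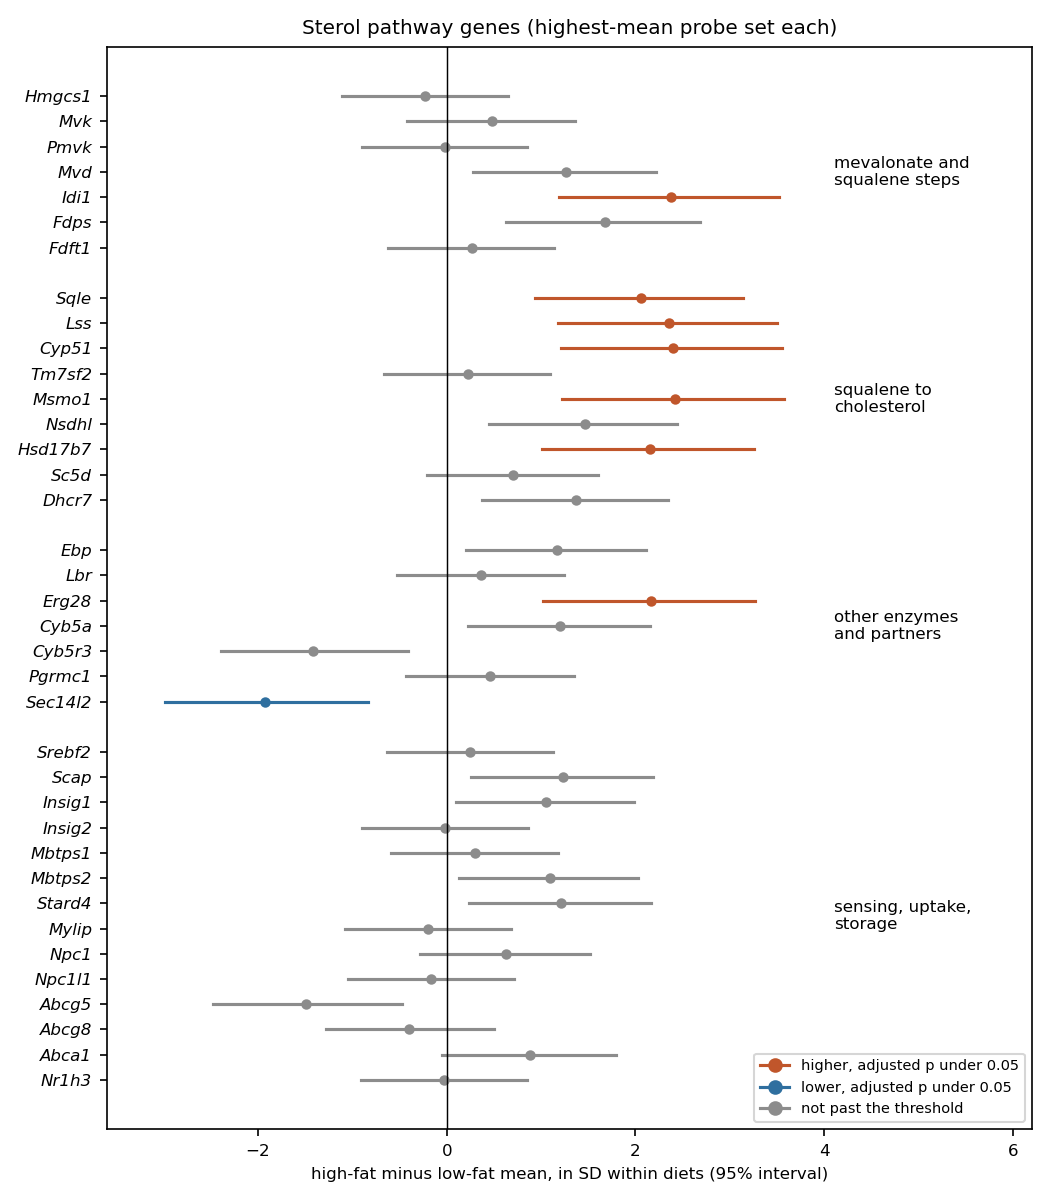
Standardised difference between diets (x axis, high-fat minus low-fat mean in units of the SD within diets, 95% interval) for genes before squalene, the 9 enzymes, their partners and genes of sterol sensing, each at its highest-mean probe set. Calls number 5 of 9 among the enzymes, 1 of 7 before squalene, 2 of 7 among partners and 0 of 14 among sensing genes.

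Liver identity and array quality were checked once for the series. The 7 measured hepatocyte markers had mean scores up to 14.8 for Alb. At their highest-mean probe sets 0 passed the diet test by limma (1 had an unadjusted p under 0.05), but over all 18 probe sets of these genes 2 were lower. Both belonged to Ttr, the transthyretin gene, which was named after its values were seen. They stood at -2.46 (1455913_x_at, limma adjusted p = 0.00562) and -1.96 (1451580_a_at, limma adjusted p = 0.0258). Its highest-mean probe set, 1454608_x_at, stood at -3.12 without a call by limma (adjusted p = 0.241), with an SD within diets of 5.02e-07, and was lower without limma's moderation of the variance (adjusted p = 0.00133). Apoa1, of the same list and also named after its values were seen, went the other way. Its 4 probe sets stood at 1.35 to 1.44, without a call. Without moderation the same 5 of the 9 enzyme genes were called. The mean score of the hepatocyte list ran from 13.562 to 13.571 in high-fat mice, against 13.565 to 13.569 in low-fat mice, and its part in the enzyme results was not tested. This mean of raw scores moves almost only with Tat (SD within diets 0.0174), and Ttr (5.02e-07) adds next to nothing to it. Markers of bile duct, Kupffer, stellate, endothelial, fat and lymphoid cells gave 0 calls by limma at any probe set (at their highest-mean probe sets 1, in the stellate list, had an unadjusted p under 0.05), and 1 of 3 pancreatic markers, Cela1, was called higher (1.80, limma adjusted p = 0.0349). The mean score of the pancreatic list ran from 7.3618 to 7.3629 in high-fat mice, against 7.3612 to 7.3621 in low-fat mice, and its part in the enzyme results was not tested. That mean moves almost only with Cela1 (SD within diets 0.00105, against 1.24e-05 for Prss2 and 1.58e-05 for Cpa1). The 24 poly-A spike-in probe sets, which detect bacterial RNAs added as controls, averaged -2.87, -0.35 and 0.73 SD (lowest, median, highest) in high-fat mice, against -0.28, -0.06 and 0.55 in low-fat mice. High-fat replicates 1, 4, 5 and 7 were the low ones. With their mean as a covariate, 5 of 19 probe sets and 4 of 9 genes were higher. Within high-fat mice the spike-in mean had an r of -0.15 with the mean of the 9 genes (rho -0.24, permutation p = 0.667 and 0.510, adjusted 0.819 and 0.680), and 0.27 without the 2 farthest mice. The array medians were 6.56705, 6.56717 and 6.56719 (lowest, median, highest) in high-fat mice, against 6.56702, 6.56705 and 6.56720 in low-fat mice, a difference of 1.33 SD. With the mean of the 9 genes they had an r of -0.15 in high-fat mice (rho -0.49, permutation p = 0.722 and 0.154, adjusted 0.819 and 0.414 over 4 relations), and -0.65 without the 2 farthest mice. In low-fat mice the r was 0.57 (rho 0.44, permutation p = 0.0782 and 0.207, adjusted 0.313 and 0.414), and 0.23 without the 2 farthest mice. The part of the array median in the enzyme results was not tested beyond the fits that centred the arrays.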

How the data were processed

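Liver RNA of 20 mice, 10 per diet, was hybridised to 1 Affymetrix array each after biotin labelling with a 3' IVT kit, per the labels' protocols. The authors deposited a normalized score per probe set. Its background correction, summarisation and scale are not given in the sources used here, and it behaves as a compressed level, so a small SD can reflect that scale. It was used as deposited. The number of arrays limits the precision.

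The 9 genes, the lists and the named genes (all 9, list genes past the threshold with up to 3 others per list, and the 5 most alike) were chosen with earlier results of these data known. Correlations between probe sets of 1 gene and with array measures, the spread ratios, and the markers without moderation and at all their probe sets were added after seeing the data. limma 3.58.1 in R 4.3.3 compared diets over 45037 probe sets, leaving out 64 controls, with Benjamini-Hochberg adjustment. Symbols came from the platform annotation: 34945 probe sets had 1, 932 several and 9160 none. Correlations used 100000 permutations. In simulated data with 200 changed probe sets of 45037, shifts of 1, 2 and 3 SD were recovered in 1.49%, 41.8% and 92.4%. The simulated noise was normal and independent between probe sets, and the real data gave 1043 calls. These shares are therefore not the power of the tests reported here. Same-numbered mice were different animals, and their deviations correlated from -0.146 to 0.230, so no pairing by number was evident. Whether the numbers follow a shared order or batch is not known, and these correlations cannot settle it.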

Additional observations from a re-analysis of the deposited data

Results flagged for a closer look

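Each of the 19 probe sets and the mean of the 9 genes was searched in both diets, 40 groups of 10 mice in all, for a highest or lowest mouse far from the others. The measure is the gap to the nearest mouse divided by the range of the group, judged against Dixon's 95% critical value, and chance passes about 1 in 20 groups. At Cyp51, high-fat replicate 9 stood low at 1450646_at (0.513) and at 1422533_at (0.495), which read the same transcript. At Lss 1426913_at, high-fat replicate 6 stood high (0.474). The causes were not tested.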

How the results depend on the processing

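The 5 higher genes of 9 numbered 5 in all 20 fits that left out 1 mouse, and the 8 higher probe sets of 19 ranged from 6 to 9 there. A replicate block left 6 probe sets and 5 genes higher. No pairing by number was evident, as only 2 of 10 pairs correlated above 0.1, but a shared order or batch was not tested. Higher probe sets numbered 5 with the spike-in covariate (4 genes), 4 at a threshold of 0.01 (3 genes) and 5 of the 16 without the suffixes _s_at, _x_at and _a_at. Those 5 belonged to Sqle, Cyp51 and Hsd17b7, and of the 6 genes whose highest-mean probe set had no such suffix, 2 were higher. The called probe set of Msmo1, 1423078_a_at, was left out by its suffix and so was not judged in that fit. Median centring called 11 of the 19 probe sets higher (7 genes) and 4 lower, with 38220 of all 45037 lower. Centring on standardised values called 12 probe sets and 7 genes higher, and the mean of each gene's probe sets 7 genes. Median centring lowers probe sets of small SD by construction, as the subtracted array median was higher on the high-fat diet. The cause of the other shifts was not tested, except that the stricter threshold and the smaller set act by construction. Signs turned after quantile normalisation at Lss 1420014_at (-1.02), Sc5d 1434520_at (-0.074) and 1451457_at (-0.18), Hsd17b7 1440057_at (-1.13), Erg28 (-0.38) and Srebf2 (-0.99). They turned after median centring at Lss 1420014_at (-1.26), Hsd17b7 1440057_at (-1.26), Msmo1 1459627_at (-1.40), Tm7sf2 (-0.25), Ebp (-1.15) and Srebf2 (-1.15), and with the spike-in covariate at Sc5d 1434520_at (-0.068) and Srebf2 (-0.13). Leaving out 1 mouse gave -0.156 to 0.250 for Msmo1 1459627_at, -0.283 to 0.124 for Sc5d 1424709_at, -0.239 to 0.257 for Sc5d 1434520_at, -0.0432 to 0.501 for Srebf2 and -0.438 to 0.00444 for Hmgcs1, all without a call. The scale of the score and its unknown summarisation limit every size given, and signal over background is not known for any probe set.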
